A study of Homo sapiens with 25 samples.

Results

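The 4 miRNA hairpins described here lie in or beside imprinted genes: hsa-mir-335 in MEST, hsa-mir-296 at the GNAS locus, hsa-mir-675 in H19 and hsa-mir-483 in IGF2. They were chosen by name from the deposited tables, with their values in these same libraries already known. The rule took the unstarred rows, which gave 7 of the 1410 rows of the mature table and 4 of the 934 rows of the precursor table. Their levels and the differences between the groups are therefore given as descriptions, without a test of their own. The starred row of the miR-675 hairpin, miR-675*, is outside the rule. It is given beside miR-675 because it is the other arm, and its reads are part of the precursor row.

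The RNA came from A2780 cells, a long-established line of human ovarian carcinoma grown in RPMI medium with fetal bovine serum. The cells carried an empty lentiviral vector (pLVX), a lentivirus for overexpression of pri-miR-450a, or a lentivirus for overexpression of pri-miR-450b, with 3 small RNA libraries in each of the 3 groups. All groups thus carried a lentiviral vector, and they are called the control, miR-450a and miR-450b libraries. The labels describe the libraries of a group as biological replicates. They do not say whether these came from separate transductions, cultures or clones, so p-values measure only the spread between these libraries, which may be technical. A level is given as reads per 1000000 miRNA reads of a library (RPM).

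Imprinted genes are transcribed mainly from the copy inherited from the mother or mainly from that inherited from the father. H19 is a long noncoding RNA expressed from the maternal copy, and miR-675 is cut from its exon. IGF2, a growth factor gene next to H19, and MEST are expressed from the paternal copy, with miR-483 and miR-335 in their introns. In mouse, miR-296 comes from a paternal antisense transcript of the Gnas locus. A mature miRNA guides an Argonaute protein to mRNAs that pair with its seed (bases 2 to 8), and each hairpin can yield a 5p and a 3p arm. Neither the parental copy nor the host transcripts were measured in these libraries.

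The mature arms of 3 hairpins are shown first, because the arms of a hairpin are different guides, whatever transcript they share. Sequences are from RefSeq (GRCh38.p14), 5′ to 3′, with the seed in capitals. In the older naming used by the tables, miR-675 is the 5p arm and miR-675* the 3p arm.
miR-335-5p: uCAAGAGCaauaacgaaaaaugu
miR-335-3p: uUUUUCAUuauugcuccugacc
miR-296-5p: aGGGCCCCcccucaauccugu
miR-296-3p: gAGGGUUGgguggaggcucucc
miR-675-5p: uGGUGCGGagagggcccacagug
miR-675-3p: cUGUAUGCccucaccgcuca

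No seed was shared among these 6 arms. The miR-675-5p seed also occurred in 1 other human mature miRNA of the RefSeq table, miR-4466, for which the mature table had no row. The other 5 seeds occurred in no other entry. The miR-335 arms are poor in G and C, at 30.4% for the 5p arm and 36.4% for the 3p arm. The miR-296 arms are at 66.7% and 68.2% and the miR-675 arms at 69.6% and 60.0%. The median over the 2370 human mature miRNAs of the table was 52.2%.

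The hairpins show where each arm lies, with the arms in capitals. The miR-335 hairpin is on the plus strand at chr7:130496111-130496204, within the span of MEST. The miR-296 hairpin is on the minus strand at chr20:58817615-58817694, where no other gene of the RefSeq table spans it and MIR298 is the next miRNA gene. The miR-675 hairpin is on the minus strand at chr11:1996759-1996831, within the spans of H19 and MRPL23. MIR483, within the span of IGF2, is the next miRNA gene on chromosome 11 in that table.
mir-335: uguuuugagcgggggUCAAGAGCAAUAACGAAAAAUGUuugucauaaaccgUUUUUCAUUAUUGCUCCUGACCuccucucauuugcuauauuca
mir-296: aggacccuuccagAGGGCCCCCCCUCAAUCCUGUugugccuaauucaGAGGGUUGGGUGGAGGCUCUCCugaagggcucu
mir-675: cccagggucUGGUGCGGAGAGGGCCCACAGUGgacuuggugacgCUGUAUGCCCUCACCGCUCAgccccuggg

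The miR-450a libraries stood apart from the other 6 in some, but not all, of the listed miRNAs that are no members. The 6 rows of miR-199a, miR-199b and miR-214, miRNAs of mesenchymal cells, summed to 17.6 to 25.4% of reads in the control libraries and 20.5 to 25.05% in the miR-450b libraries. In the miR-450a libraries they summed to 0.0385 to 0.0530%. All 6 rows were above 0 in each group. The 4 rows of miR-10b and miR-196b, from HOX clusters, summed to 22149 to 26490 RPM in the miR-450a libraries. They summed to 95.04 to 284 RPM in the control libraries and 206 to 269 in the miR-450b libraries. The mir-10a and mir-196a hairpins, also from HOX clusters, did not follow them. In the precursor table mir-10a averaged 35622 RPM in the control, 37781 in the miR-450a and 45771 in the miR-450b libraries. In the same order mir-196a-2 averaged 3954, 1806 and 4464 RPM, and mir-196a-1 averaged 3374, 1487 and 3914. The 2 viral rows of SV40 miR-S1 summed to 48.6 to 74.1 RPM in the miR-450a libraries and reached at most 0.787 in the other 6 libraries. The miR-200 family and miR-141, epithelial miRNAs, summed to 68.0 to 90.3 RPM in the control libraries and 280 to 370 in the miR-450a libraries. They summed to 88.7 to 153 RPM in the miR-450b libraries. In the control, miR-450a and miR-450b libraries 9, 9 and 8 of their 10 rows were above 0. Most of each sum came from mir-200c, which in the precursor table averaged 62.7, 288 and 122 RPM in that order. mir-141 averaged 11.5, 20.9 and 5.15 RPM, so the sums do not describe the family as a whole. Endothelial and blood miRNAs did not set the miR-450a libraries apart. miR-126 (endothelial) summed to 1032 to 1972, 649 to 2226 and 902 to 1390 RPM in the control, miR-450a and miR-450b libraries. In the same order miR-142, miR-223 and miR-451, of blood cells, summed to 122 to 348, 111 to 293 and 129 to 310 RPM. No miRNA of these lists defines A2780, so that label was not tested. The part of these differences in the results on the miR-450a libraries was not tested, and an effect of miR-450a itself and any other difference between those cells cannot be told apart.

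Each vector group drew its imprinted-locus reads mainly from a different hairpin. In the precursor table, where a row is the sum of its arms, mir-335 held 82.7 ± 2.26% of the reads of the 4 hairpins in the control libraries (SD, n = 3). In the miR-450a libraries mir-296 held 99.0 ± 0.170%, and in the miR-450b libraries mir-675 held 77.8 ± 4.12%. The 4 hairpins together stood at 2920 to 3227 RPM in the control libraries, 2342 to 2628 in the miR-450a libraries and 1507 to 1683 in the miR-450b libraries. The leading hairpin was the same in the 3 libraries of a group and differed between groups. In bulk RNA, fewer cells of a type and less RNA per cell cannot be told apart, and a share can also change because other miRNAs change.

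**Figure D1:**
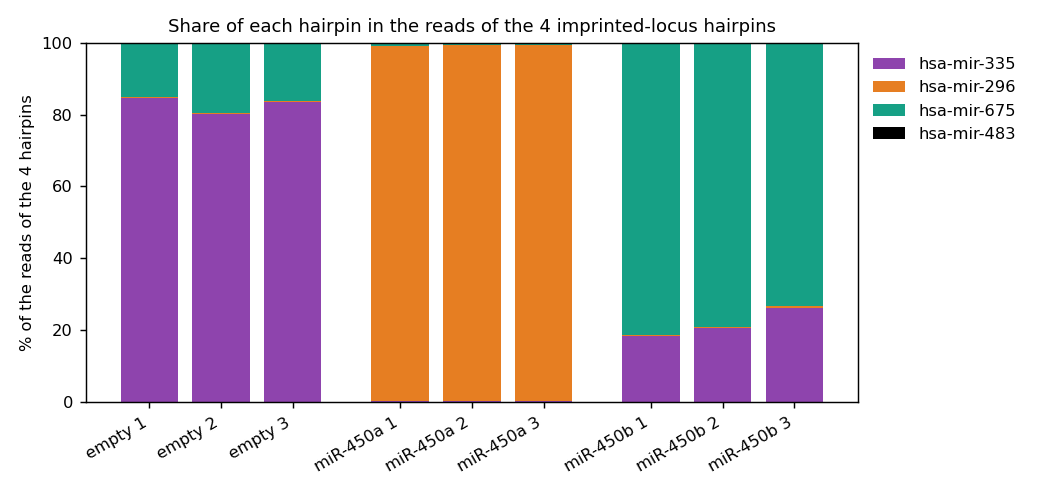
Percentage of the summed reads of the 4 hairpins (y axis) held by each hairpin in each of the 9 libraries (x axis, vector and replicate number). mir-335 fills 80.2 to 84.5% of the bar in the control libraries, mir-296 98.8 to 99.1% in the miR-450a libraries and mir-675 73.3 to 81.3% in the miR-450b libraries.

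miR-335, in an intron of MEST, is known as a suppressor of metastasis in breast cancer cells, and was highest in the control libraries. miR-335-5p stood at 1555, 986 and 1258 RPM in control replicates 1, 2 and 3. It was at 132, 167 and 256 RPM in the miR-450b libraries and at 3.18, 8.09 and 3.94 RPM in the miR-450a libraries. The 3 groups formed 3 separate levels with no overlap.

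miR-335-3p gave the same order. It stood at 1173, 1356 and 1277 RPM in the control libraries, at 145.3, 172 and 187 RPM in the miR-450b libraries and at 4.52, 2.01 and 1.45 RPM in the miR-450a libraries. Again no library of a group reached the level of the next group. The ratio of group means, empty over miR-450b vector, was 6.85 for the 5p arm and 7.55 for the 3p arm. Empty over miR-450a vector, it was 249.6 and 478. Among human rows of a library ordered by level, miR-335-3p ranked 86 to 94 in the control libraries, 163 to 176 in the miR-450b libraries and 486 to 565 in the miR-450a libraries.

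miR-296, a regulator of growth factor receptor turnover in blood vessel cells, was high only in the miR-450a libraries among these 9. miR-296-3p stood at 1559, 1054 and 1539 RPM there. It stood at 2.19, 3.41 and 6.13 RPM in the control libraries and at 2.24, 2.17 and 5.15 RPM in the miR-450b libraries. The control and miR-450b libraries overlapped.

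miR-296-5p was at 1037, 1266 and 949 RPM in the miR-450a libraries, at 12.8, 7.23 and 5.24 RPM in the control libraries and at 2.60, 2.71 and 1.79 RPM in the miR-450b libraries. Here the control libraries lay above the miR-450b libraries without overlap, with group means of 8.42 and 2.36 RPM. For the summed hairpin the means were 2468 RPM in the miR-450a libraries, 12.3 in the control libraries and 5.55 in the miR-450b libraries. The ratio of means, miR-450a over empty vector, was 354 for the 3p arm and 129 for the 5p arm. In rank, miR-296-3p stood at 81 to 97 among human rows in the miR-450a libraries and at 395 or further down in the other 6.

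miR-675, which in mouse placenta limits growth through the receptor of IGF1, was lowest in the miR-450a libraries and highest in the miR-450b libraries. It was at 408, 349 and 309 RPM in the miR-450b libraries, at 198, 135 and 137 RPM in the control libraries and at 8.52, 3.86 and 4.60 RPM in the miR-450a libraries. The 3 groups did not overlap. The ratio of means was 2.27 for the miR-450b over the empty vector and 27.7 for the empty over the miR-450a vector.

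The arm that the tables mark as the lesser one, miR-675*, was the more abundant arm in each of the 9 libraries. miR-675* was at 816, 944 and 924 RPM in the miR-450b libraries, at 285, 431.6 and 353 RPM in the control libraries and at 10.8, 6.68 and 11.2 RPM in the miR-450a libraries. Its groups were in the same order as those of miR-675 and did not overlap either. For the summed mir-675 hairpin, the means were 1250.5 ± 37.5 RPM in the miR-450b libraries, 513 ± 46.5 in the control libraries and 15.2 ± 4.40 in the miR-450a libraries (SD, n = 3).

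miR-483, from an intron of IGF2, is known as an oncogenic miRNA of Wilms tumours and liver cancers, and was barely present. miR-483-3p stood at 0.365, 0.288 and 0.444 RPM in the control libraries and at 2.98, 0.743 and 0.526 RPM in the miR-450a libraries. It stood at 0.118 RPM in miR-450b replicate 1 and was listed at 0 in replicates 2 and 3.

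miR-483-5p stood at 0.464, 0.329 and 0.0889 RPM in the control libraries and at 1.74, 0.743 and 0.657 RPM in the miR-450a libraries. In the miR-450b libraries it was listed at 0 in replicates 1 and 2 and stood at 0.286 RPM in replicate 3. Both arms were highest in the miR-450a libraries, which did not overlap the control libraries. The closest libraries of these groups were at 0.526 and 0.444 RPM for the 3p arm and 0.657 and 0.464 RPM for the 5p arm. How many rows of such low levels had no overlap was not computed. Neither arm reached a mean of 10 RPM, so miR-483 was left out of the fit described next. The read totals behind these shares are unknown, and no detection limit can be set for so low a level. mir-675, its neighbour among the miRNA genes of chromosome 11, reached 1293 RPM, against at most 4.72 RPM for mir-483.

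**Figure D2:**
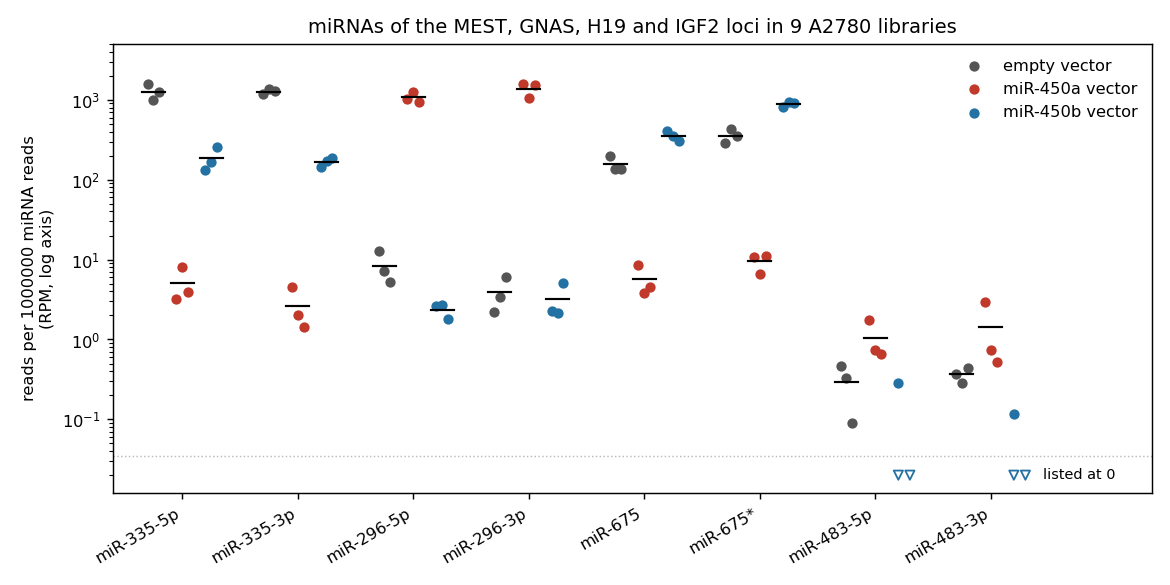
Level in reads per 1000000 miRNA reads (y axis, log scale) of the 7 member rows and of miR-675* in the 9 libraries. Each point is a library coloured by vector, black bars are means of 3 libraries, and open triangles are values listed at 0, with no mean drawn for those groups. The miR-335 and miR-675 rows are lowest in the miR-450a libraries and the miR-296 rows are highest there.

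Differences between groups were estimated with limma on log2(RPM + 10) over 406 mature rows, those averaging 10 RPM or more, of which 5 were member rows. This scale understates changes of low levels. Both miR-296 rows passed that filter only through the miR-450a libraries, where they are high. In the miR-450a libraries, miR-296-3p differed from the control libraries by 6.63 ± 0.24 (log2, SE) and miR-296-5p by 5.90 ± 0.23. miR-335-3p differed by -6.66 ± 0.24, miR-335-5p by -6.39 ± 0.31 and miR-675 by -3.40 ± 0.25. miR-296-3p had the third highest change of the 406 rows, and miR-335-3p the 8th lowest.

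At an adjusted p of 0.05 (Benjamini-Hochberg over all 406 rows), 225 rows, or 55.4%, passed in that comparison, 150 higher and 75 lower. All 5 tested member rows were among them, 2 higher, against 36.9% of all rows, and 3 lower, against 18.5%. Groups did not overlap for 57.9% of the tested rows, and for all 5 of these member rows. Since the members were chosen with these values known, nothing is read from their counts. The median absolute log2 change was 6.39 over the 5 member rows and 0.91 over all 406. For the same reason nothing is read from that gap.

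In the miR-450b libraries, miR-335-3p differed from the control libraries by -2.85 ± 0.24 (log2, SE) and miR-335-5p by -2.74 ± 0.31, while miR-675 differed by 1.14 ± 0.25. Those 3 of the 5 tested member rows passed the adjusted p of 0.05, against 59 of 406 rows, or 14.5%. The 1 higher member row stands against 4.43% of all rows and the 2 lower ones against 10.1%, and nothing is read from these counts either. Groups did not overlap for 31.8% of all rows tested, and for 4 of the 5 member rows. miR-296-3p was at -0.07 ± 0.24 and miR-296-5p at -0.56 ± 0.23, neither past the threshold. miR-296-5p did pass with a pseudocount of 1 RPM, at -1.42, and when only the 6 libraries compared were fitted, at -0.56. The median absolute log2 change was 1.14 over the member rows and 0.45 over all rows, and nothing is read from that gap.

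Between the miR-450a and miR-450b vectors, miR-296-3p differed by 6.71 ± 0.24 (log2, SE) and miR-296-5p by 6.46 ± 0.23, both higher in the miR-450a libraries. miR-675 was at -4.55 ± 0.25, miR-335-3p at -3.82 ± 0.24 and miR-335-5p at -3.66 ± 0.31, all lower in the miR-450a libraries. All 5 tested member rows passed, 2 higher and 3 lower, against 245 of 406 rows, or 60.3%, of which 41.9% of all rows were higher and 18.5% lower. Groups did not overlap for any of the 5 member rows, nor for 69.0% of all rows tested. Among precursors, 3 of the 3 tested member hairpins passed for the miR-450a against the control libraries, 2 for the miR-450b against the control libraries and 3 between the vectors, where 62.7%, 17.3% and 66.9% of all 284 rows passed. The 3 comparisons share libraries and are not independent.

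Scaling moved the median over all rows by more than 0.1 on the log2 scale in each comparison. This median log2 change went from 0.44 as deposited to -0.02 with median-of-ratios scaling for the miR-450a libraries against the control libraries, and from -0.16 to -0.01 for the miR-450b libraries against the control libraries. Of the calls, 66.7% were higher in the first comparison as deposited and 47.0% with that scaling, and 30.5% and 43.3% in the second. Between the miR-450a and miR-450b vectors 69.4% and 43.5% were higher, and the median went from 0.62 to 0.00. All 5 tested member rows kept their direction under it in the 3 comparisons. For the miR-450a libraries against the control libraries, miR-296-3p then stood at 6.19 and miR-335-3p at -6.84, and for the miR-450b libraries against the control libraries miR-675 stood at 1.36 and miR-335-3p at -2.65. When the miR-199, miR-214 and miR-450 rows were left out before shares were computed, 56.5% of calls were higher in the first comparison and 57.3% between the vectors.

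**Figure D3:**
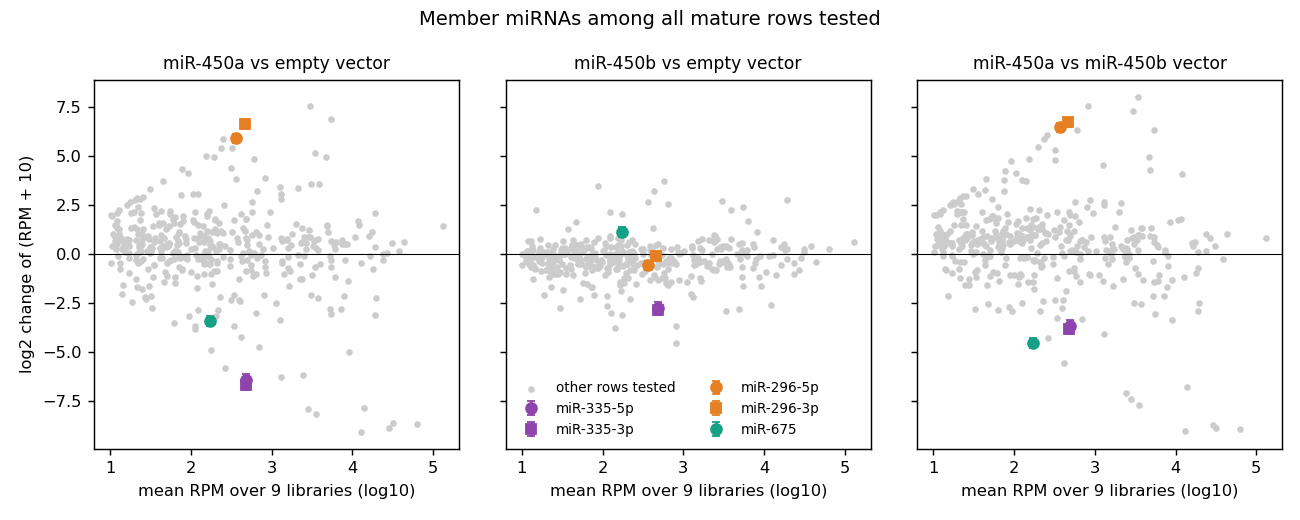
log2 change of (RPM + 10) (y axis) against the mean RPM over the 9 libraries (x axis, log10) for the 406 mature rows tested, with member rows in colour and bars for the standard error. The miR-296 rows lie near 6 on the log2 scale in both comparisons of the miR-450a libraries and near 0 in the other, and the miR-335 rows lie below 0 in each.

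The balance between the arms of a hairpin is a ratio within a hairpin, and it was compared between groups. Whether it varies with the level of the hairpin was not tested. The comparison was made where the summed arms averaged 10 RPM or more in both groups, which gave 5 comparisons. The 5p arm made up 49.6 ± 7.46% of miR-335 reads in the control libraries and 51.5 ± 5.51% in the miR-450b libraries (SD, n = 3, two-sided exact permutation p = 0.8, adjusted p = 0.8). The arms of miR-335 were thus near balance in both groups, at summed levels of 2535 and 353 RPM. With 3 libraries against 3 this exact permutation test cannot go below p = 0.1, so it cannot pass 0.05.

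For miR-675, the 5p arm made up 31.0 ± 8.93% in the control libraries, 28.5 ± 4.32% in the miR-450b libraries and 36.6 ± 7.49% in the miR-450a libraries (SD, n = 3). The exact permutation p was 0.8 for the miR-450b libraries against the control libraries, 0.4 for the miR-450a libraries against the control libraries and 0.2 between the miR-450a and miR-450b vectors, with adjusted p of 0.8, 0.667 and 0.5. For miR-296, the 5p arm made up 44.2 ± 9.01% in the miR-450a libraries and 66.5 ± 19.7% in the control libraries (SD, n = 3, exact permutation p = 0.2, adjusted p = 0.5). The control libraries were spread from 46.1 to 85.4%, at a summed level of only 12.3 RPM. The lowest exact permutation p of the 5 comparisons was 0.2, which does not show that the balance was equal.

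**Figure D4:**
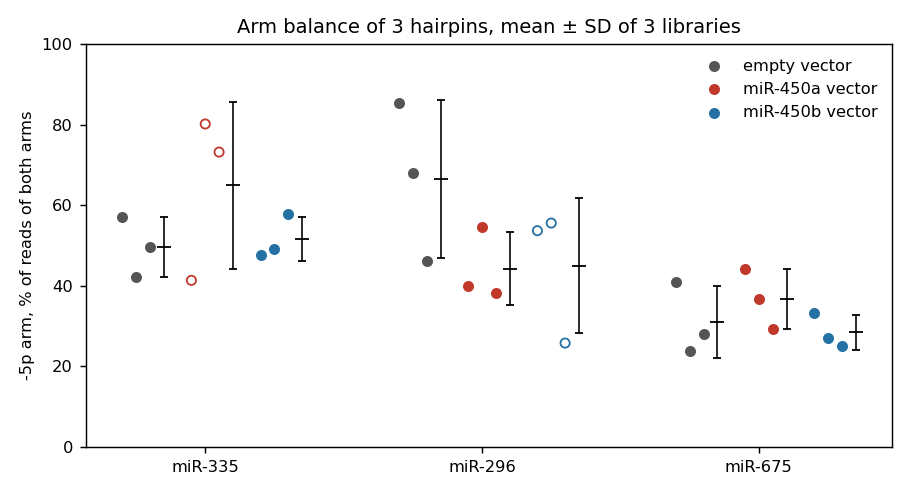
Percentage of the reads of both arms held by the 5p arm (y axis) for 3 hairpins in each library, with mean ± SD of 3 libraries beside each group. Open circles mark groups whose arms sum to a mean under 10 RPM, which were not compared. The 5p arm of miR-675 lies below 50% in each of the 9 libraries, between 23.9 and 44.1%.

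The rows most alike were ranked by the root mean square difference of log2(RPM + 10) over the 9 libraries, after each row was centred on its own mean. This is a description over 403 human rows, and the libraries fall into 3 vector groups. The arms of a hairpin differed by 0.32 for miR-335, 0.47 for miR-296 and 0.53 for miR-675 and miR-675* (log2). For miR-335-3p the nearest rows of other hairpins were miR-143, a miRNA of smooth muscle and fibroblasts, at 0.36, then miR-130a* at 0.67 and miR-204 at 0.91. miR-335-5p had the same 3, at 0.38, 0.62 and 0.87. The median difference from miR-335-3p over the other rows was 2.96. miR-143 stood at a mean of 3197 RPM in the control libraries, 698 in the miR-450b libraries and 31.0 in the miR-450a libraries. The 4 rows of miR-143 and miR-145, all above 0 in each group, summed to 2939 to 4539 RPM in the control libraries, 593 to 932 in the miR-450b libraries and 33.0 to 43.2 in the miR-450a libraries. Their part in the levels of miR-335 was not tested.

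For miR-296-3p the nearest rows were miR-708 at 0.38, miR-10b at 0.41 and miR-196b at 0.44. For miR-296-5p they were miR-708 at 0.32, miR-31-5p at 0.47 and miR-450a-1*, the lesser arm of a vector miRNA, at 0.51. miR-708 stood at a mean of 754 RPM in the miR-450a libraries, 3.03 in the control libraries and 1.26 in the miR-450b libraries. For miR-675 no row of another hairpin came as near, with miR-99a* at 0.74, miR-137* at 0.75 and miR-29a at 0.76.

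**Figure D5:**
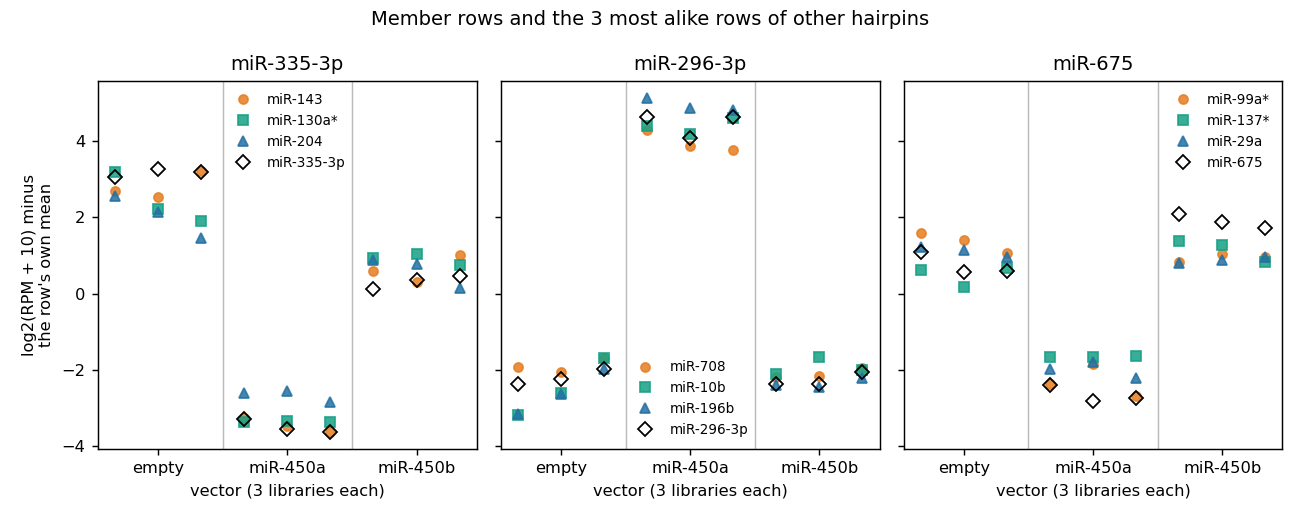
log2(RPM + 10) minus the row's own mean (y axis) in the 9 libraries (x axis, by vector) for miR-335-3p, miR-296-3p and miR-675 with their 3 nearest rows of other hairpins. miR-143 follows miR-335-3p through all 3 groups, while the rows nearest to miR-675 lie below it in the miR-450b libraries.

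Neighbouring miRNA genes on 7q32 were compared with miR-335, because MIR183 and MIR29A are the miRNA genes on either side of MIR335 in the RefSeq gene table. The list held 10 tested rows of miR-29a, miR-29b, miR-96, miR-182 and miR-183. The miR-29b row merges a copy of the gene on another chromosome. In the miR-450a libraries, 8 of the 10 fell against the control libraries and 0 rose (limma adjusted p under 0.05), where 18.5% of all 406 rows fell. The 10 rows include both arms of the same hairpins, so they are not independent. The list was also chosen with earlier results of these data known, and nothing is read from this count. miR-29a fell from 29327 to 3397 RPM (-3.11 ± 0.23 on the log2 scale, adjusted p = 4.34e-07), and miR-29b-1*, from the copy on 7q32, from 149.5 to 8.23 RPM (-3.16 ± 0.33, adjusted p = 9.29e-06). The other 6 that fell were miR-29a* by 3.15 on the log2 scale, miR-29b by 2.49, miR-96 by 2.06, miR-183* by 1.71, miR-96* by 1.28 and miR-182 by 0.85. miR-182* was at -0.54 and miR-183 at -0.52, neither past the threshold.

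In the miR-450b libraries 0 of the 10 passed in limma at an adjusted p of 0.05, and 1 had an unadjusted p under 0.05. Their log2 changes ran from -1.44 to 0.78, against -2.85 for miR-335-3p. miR-29a was at -0.23 ± 0.23 (adjusted p = 0.524) and miR-182 at 0.77 ± 0.30 (adjusted p = 0.130). The difference between miR-335 and these neighbours was not tested. miR-210, the only tested row of the list for 11p15, stood at means of 918, 1150 and 1030 RPM with the empty, miR-450a and miR-450b vectors. Its log2 changes against the control libraries were 0.31 ± 0.26 (adjusted p = 0.347) and 0.16 ± 0.26 (adjusted p = 0.715).

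Rows of miRNAs of other imprinted loci were low, with a highest mean of 2.14 RPM over the 9 libraries. The list held 98 rows of the 14q32 cluster between DLK1 and DIO3 and 77 rows of the 19q13 cluster, and 0 of these 175 reached a mean of 10 RPM, so none entered the fit. miR-298, also on the list, had no row in the mature table. Together the 175 rows summed to 31.6 to 49.9 RPM in the control libraries, 10.5 to 13.1 in the miR-450a libraries and 13.3 to 19.3 in the miR-450b libraries. The 4 with the highest mean were miR-369, miR-127-3p, miR-380-3p and miR-519a. miR-127-3p stood at 1.39 to 3.02 RPM in the control libraries, 1.11 to 1.71 in the miR-450a libraries and 1.30 to 1.95 in the miR-450b libraries. miR-369 ran from 0.986 to 5.15 RPM and miR-380-3p from 1.29 to 3.66 RPM in the control libraries. miR-519a reached 7.19 RPM in a single control library and was listed at 0 in the 3 libraries of the miR-450b vector.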

How the data were processed

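Small RNA of A2780 cells was sequenced on an Illumina instrument in single reads of 50 cycles, per the labels' protocols. The deposited values are fractions made by the authors, each giving what part of a library's miRNA reads fell to that mature miRNA or precursor. Each column summed to 1. Aligner, annotation and build: not given in the sources used here. TopHat and Cuffdiff are named in the submitters' processing notes, with no version or role. No read totals accompany the fractions, so depth is unknown and no intervals or count tests were used.

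Fractions were multiplied by 1000000 to give RPM. limma 3.58.1 (R 4.3.3) with an intensity trend was fitted to log2(RPM + 10) of all 9 libraries, for rows averaging 10 RPM or more, with Benjamini-Hochberg adjustment over all rows of a comparison. The code was tested on simulated data. Arm balance was compared with two-sided exact permutation tests in Python 3.11.15. Alternatives were other pseudocounts, filters and scalings, no trend, the compared groups only, a replicate block and leaving out each library. The members and lists were chosen with earlier results of these data known. All member rows are named, with the 3 nearest rows of each, all tested neighbours on 7q32 and 11p15, and the 4 highest rows of other imprinted loci. miR-29b-2*, made by a gene copy outside 7q32, was left out of that list. Samples for mRNA and PAR-CLIP were not analysed here.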

Additional observations from a re-analysis of the deposited data

Results flagged for a closer look

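In 3 member rows every miR-450a library moved away from the control libraries in the direction opposite to every miR-450b library. The share of all rows with such opposite shifts was not computed. Of the tested rows, 57.9% had no overlap between the miR-450a and control libraries and 31.8% between the miR-450b and control libraries. miR-296-5p was higher in the miR-450a libraries and lower in the miR-450b libraries, and these vectors differed by 6.46 on the log2 scale. Its fall in the miR-450b libraries was between means of 8.42 and 2.36 RPM. In the main fit that fall was -0.56 ± 0.23 (log2, SE), not past the threshold. miR-675 was lower in the miR-450a libraries and higher in the miR-450b libraries, a difference of -4.55. miR-483-3p, which was left out of the fit, was above the control libraries in the miR-450a libraries and below them in the miR-450b libraries. Its closest libraries of these vectors were 0.407 RPM apart, and 2 of the 3 miR-450b libraries were listed at 0. These differences were not tested as results of their own, since the members were chosen with these values known.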

How the results depend on the processing

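All 5 tested member rows kept their direction and their side of the threshold in both comparisons of the miR-450a libraries under every alternative run, and so did miR-335-5p, miR-335-3p and miR-675 for the miR-450b libraries against the control libraries. The exceptions in that comparison were miR-296-5p, given above, and miR-296-3p, which was at 0.04 without control replicate 3. With a mean of at least 100 RPM, which tests 241 rows, 137 passed for the miR-450a libraries against the control libraries, 38 for the miR-450b libraries against the control libraries and 140 between those vectors. Among precursors, 3 of 3 tested member hairpins passed in each comparison of the miR-450a libraries, and 2 for the miR-450b libraries against the control libraries. Leaving out a library gave 193 to 230, 47 to 70 and 203 to 263 calls in the 3 comparisons. The difference in the 5p share, miR-450b minus control, changed sign when a library was left out, from -1.78 to 5.69 percentage points for miR-335 and from -6.01 to 2.55 for miR-675. For miR-335 it was -1.78 without control replicate 2 and -1.18 without miR-450b replicate 3, and for miR-675 it was 2.55 without control replicate 1. The other 3 differences kept their sign but their ranges span over 1.5 times. They ran from -32.5, without control replicate 3, to -12.8, without control replicate 1, for miR-296 and from 1.94 to 10.7 for miR-675, both miR-450a minus control, and from 4.41 to 11.9 for miR-675, miR-450a minus miR-450b. With the replicate block 230, 58 and 251 rows passed and no member call changed. Same-numbered libraries deviated together at r = -0.51 to 0.42 between the miR-450a and control groups, and at -0.32 to 0.30 between miR-450b and control. Between the miR-450a and miR-450b groups r was 0.03 to 0.64, positive for each number. In 8 of 18 cases a library correlated best with its own number. That count cannot settle whether the numbers are pairs, because the 3 libraries of a group were centred on their own mean. The main fit took no pairs. Whether the numbers mark a batch was not tested. Unknown depth limits miR-483, the miR-296 rows outside the miR-450a libraries and the miR-335 and miR-675 rows within them, and so the ratios of means taken over those low levels.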
